A study of Mus musculus with 8 samples.

Results

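The data concern 1 contrast in mouse skin: the effect of the carcinogen 7,12-dimethylbenz(a)anthracene (DMBA) in skin whose array showed a low Cd109 signal, minus the same effect in skin whose array showed a high Cd109 signal. All 8 arrays of the series entered the contrast, 2 in each of 4 cells: Cd109-low with DMBA, Cd109-low untreated, Cd109-high with DMBA and Cd109-high untreated. Treatment was taken from the labels, and the Cd109 state was chosen by the measured signal of the Cd109 probe A_51_P349546, above 0 for high and below -5 for low. Here and below, signal is log2 of the background-subtracted spot intensity minus log2 of the 75th percentile of its array. Total RNA was made from whole-skin samples of female mice of the FVB/N strain, taken 24 h after DMBA or with no DMBA, for which the labels give acetone, the solvent. The labels name CD109-/- mice, which lack the gene in the whole animal and were crossed back to FVB/N, and CD109+/+ mice, with 2 arrays of each genotype and treatment. The age of the mice at RNA extraction and whether the 2 arrays of a group came from different mice are not given in the sources used here, so p-values measure only the spread between these arrays.

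CD109 is a glycoprotein anchored to the cell surface by a lipid, which binds transforming growth factor beta (TGF-beta) and dampens its signalling, and in skin it is made by keratinocytes. DMBA is converted in skin to reactive products by cytochrome P450 enzymes under control of the aryl hydrocarbon receptor. These products bind DNA, and damaged keratinocytes release cytokines of the interleukin-1 family, after which CXC chemokines draw neutrophils from the blood. Hair follicles cycle between growth, in which matrix cells divide and hair keratins are made, and rest, in which these transcripts are scarce, so whole skin in these states differs in many genes.

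The Cd109 signals that set the groups were -8.06 and -7.70 in Cd109-low skin with DMBA, -6.49 and -8.11 in Cd109-low untreated skin, 0.84 and 1.42 in Cd109-high skin with DMBA, and 2.06 and 1.66 in Cd109-high untreated skin. None of the Cd109-low arrays was well above background at this probe, and no array lay between the limits. Since these values made the groups, they are given without a test, and it is not known here whether the probe sits inside the part of the gene that was deleted. The state went against the label on 2 arrays: the untreated array labelled CD109+/+ replicate 2 was Cd109-low, and the untreated array labelled CD109-/- replicate 1 was Cd109-high. The remaining 6 arrays had the state their label predicts, and both arrays of each DMBA cell were among them. The list counts and the differences of most named genes are therefore given also without the 2 arrays, and with the groups of the labels, where the contrast is the DMBA effect in CD109-/- minus that in CD109+/+. Without the 2 arrays each untreated cell holds 1 array. That array was assumed to vary like the others, so counts from this fit rest on the spread between the DMBA arrays. The p-values refer to arrays divided by signal and are not a test of genotype.

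The Cd109 state also separated the arrays by hair follicle genes, whatever the label. Krt35, a keratin of the hair shaft, had signals of 5.86 and 7.73 in Cd109-low skin with DMBA and 7.48 and 6.95 in Cd109-low untreated skin, against -4.55 and -4.01 in Cd109-high skin with DMBA and -2.84 and -2.91 in Cd109-high untreated skin. The mean signal of 13 hair shaft keratins ranged from -0.01 to 4.72 on the Cd109-low arrays and from -4.94 to -4.58 on the Cd109-high arrays. Of these, 12 or 13 were well above background on each Cd109-low array and 7 or 8 on each Cd109-high array. The mean of 12 inner root sheath genes ranged from 2.91 to 5.33 in Cd109-low skin and from -3.53 to -2.96 in Cd109-high skin. Cd109 state and hair follicle state cannot be told apart in these arrays. Keratinocyte and fibroblast markers of skin were bright throughout, with Krt5 between 7.54 and 8.17 and Col1a2 between 7.97 and 8.57 over the 8 arrays. Between 63.6 and 67.0% of probes were well above background on an array, and 0 probes were saturated. The 2 arrays of Cd109-low skin with DMBA agreed less than those of the other cells: they correlated at 0.972, where the other cells had 0.986, 0.993 and 0.990. The hair shaft keratin mean was -0.01 on the first of these 2 arrays and 4.72 on the second. The DMBA arrays filled 1 row of the slide and the untreated arrays the other, so treatment and row cannot be told apart.

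**Figure D1:**
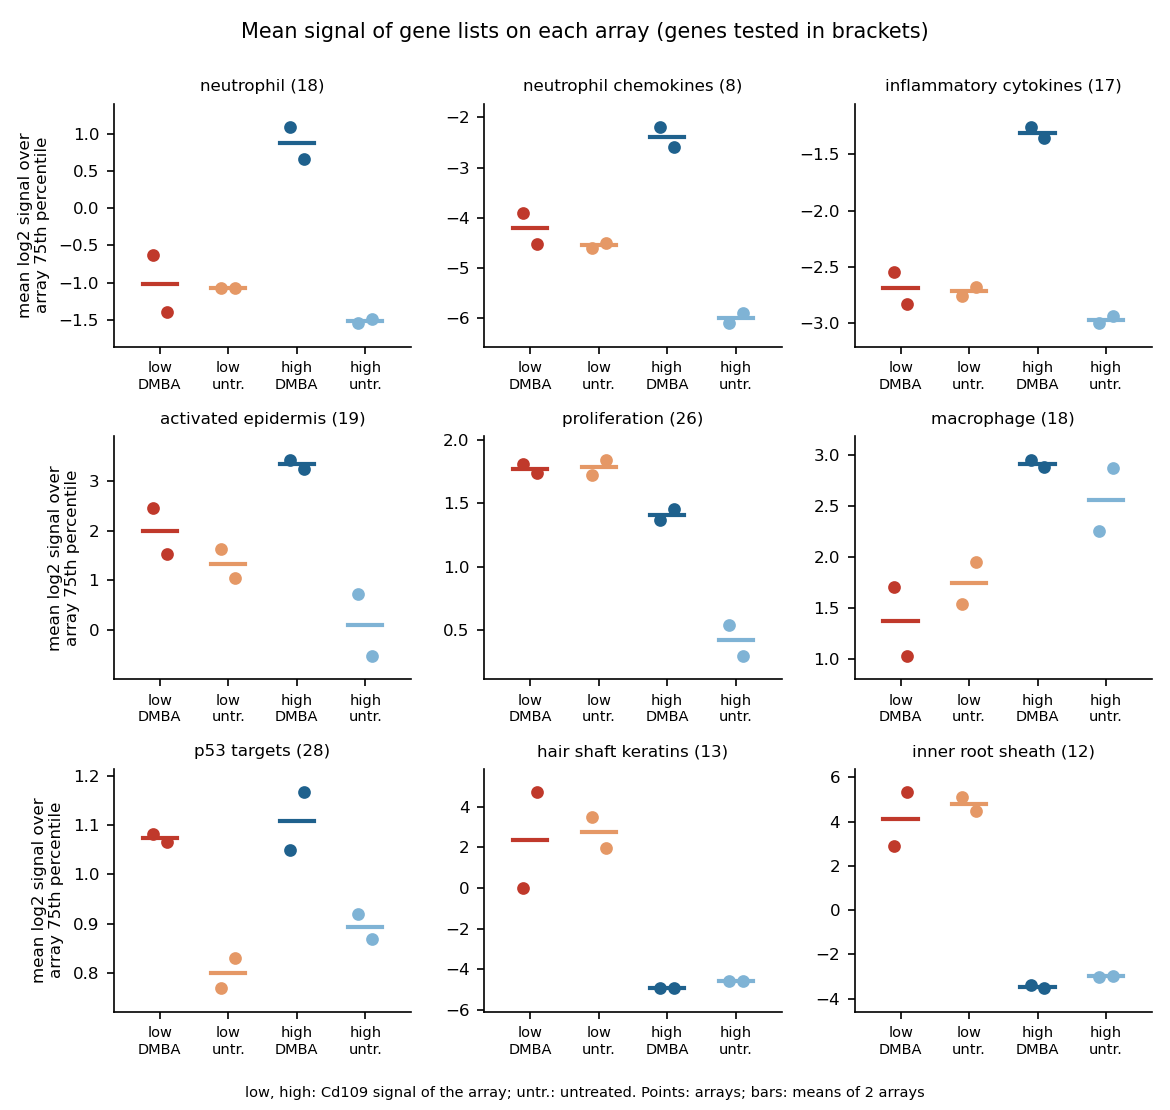
Mean signal (log2 over the array's 75th percentile) of 9 gene lists on each of the 8 arrays, with points for arrays, bars for the means of 2 arrays and the number of genes tested in brackets. The hair shaft and inner root sheath lists split the arrays by Cd109 state, the neutrophil and cytokine lists were highest in Cd109-high skin with DMBA, and the proliferation list was lowest in Cd109-high untreated skin.

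DMBA moved 8 probes in Cd109-low skin and 1301 in Cd109-high skin past the threshold used here. The order depended on the processing: with normexp background correction 5562 probes passed in Cd109-low and 2382 in Cd109-high skin. With quantile-normalized, median-centred and deposited values Cd109-high skin again had more. Of 37147 probes tested with limma, those past an adjusted p of 0.05 for the DMBA effect were 5 higher and 3 lower in Cd109-low skin, and 849 higher and 452 lower in Cd109-high skin. By gene, taking the brightest probe of each of 16851 genes, 0.0119% rose and 0.0178% fell with DMBA in Cd109-low skin, and 3.07% rose and 1.54% fell in Cd109-high skin. At an unadjusted p under 0.05 in limma, 6499 probes changed with DMBA in Cd109-low and 8221 in Cd109-high skin, a far smaller contrast between the states. The difference between the effects, Cd109-low minus Cd109-high, passed for 13 probes (0.035%), 6 higher and 7 lower, which is 0.0178% of genes higher and 0.0415% lower. Of the 13, 5 entered the test through 1 cell alone, the others being not well above background on both arrays, and such a probe differs between cells by the way it was chosen; 8 did not, and 6 were well above background on all arrays. Among all probes tested 6.81% entered through 1 cell, and so did 5 of the 8 past the threshold in Cd109-low and 115 of the 1301 in Cd109-high skin. At an unadjusted p under 0.05 the difference was higher for 10.2% of genes and lower for 9.12%, and its median over all genes was 0.0074. Among the 1536 genes with a lower difference at that p, 80.9% had the larger change in Cd109-high skin, and among the 1722 with a higher difference 61.1% did. The count of probes past the adjusted threshold depended on the grouping, and with the groups of the labels it was 0. In that limma fit 5853 probes had an unadjusted p under 0.05 for the difference, and the smallest adjusted p was 0.0534. With the labels, 66 probes passed for the DMBA effect in CD109+/+ skin, 54 of them among the 1301.

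Transcripts typical of neutrophils were raised by DMBA in Cd109-high skin, and none of them passed in Cd109-low skin. Of 18 tested neutrophil genes, 0 rose in Cd109-low skin and 8 in Cd109-high skin, where 0.0119% and 3.07% of all genes rose. With so few genes past the threshold in Cd109-low skin, 0 of a list there says little about its members. The median effects of the 18 were 0.16 in Cd109-low and 2.15 in Cd109-high skin. The difference had a median of -2.60 and was negative for 16 genes, where 49.4% of all genes had a negative one. It was lower at an unadjusted p under 0.05 for 10 of them (55.6%, against 9.12% of all genes) and passed the adjusted p for 0. Without the 2 arrays 8 of the 18 were lower at that p (44.4%, where 5.1% of all genes were), and with the labels 9 (50%, where 7.62% were). Those 2 shares of all genes also stand beside the counts of lower differences in the lists below, without the 2 arrays and with the labels. Ltf and Trem3 entered the test through Cd109-high skin with DMBA alone, and they are still among the 18 in the counts of 8 and 9. Leaving them out of the count of 10, 9 of 16 were lower and 7 rose in Cd109-high skin. In bulk skin, fewer neutrophils and less RNA per neutrophil cannot be told apart.

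Cxcr2, the receptor by which neutrophils follow CXC chemokines, had signals of -2.33 and -2.65 in Cd109-low skin with DMBA and -2.98 and -3.14 in Cd109-low untreated skin, against 0.66 and 0.29 in Cd109-high skin with DMBA and -3.62 and -4.17 in Cd109-high untreated skin. Both Cd109-high DMBA arrays lay above the other 6 arrays. The DMBA effect on Cxcr2 was 0.57 ± 0.24 (SE) in Cd109-low skin and 4.37 ± 0.24 in Cd109-high skin, a 20.7-fold rise, and the difference was -3.81 ± 0.35 (limma adjusted p = 0.0597). Clec4d, a C-type lectin receptor of myeloid cells, had -1.42 and -1.86 in Cd109-low skin with DMBA and -0.66 and -0.21 in Cd109-low untreated skin, against 3.37 and 2.91 in Cd109-high skin with DMBA and -0.90 and -2.13 in Cd109-high untreated skin. Here the Cd109-low arrays with DMBA were both below the untreated ones, a change that did not pass, and the difference of Clec4d was -5.87 ± 0.62 (limma adjusted p = 0.0597). Without the 2 arrays the differences were -3.45 for Cxcr2 and -5.48 for Clec4d, and with the labels -2.62 and -4.39. The granule genes Mpo and Elane, which encode myeloperoxidase and neutrophil elastase, differed from these. The differences of Mpo and Elane were -0.03 and -0.10, and neither passed in either state.

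**Figure D2:**
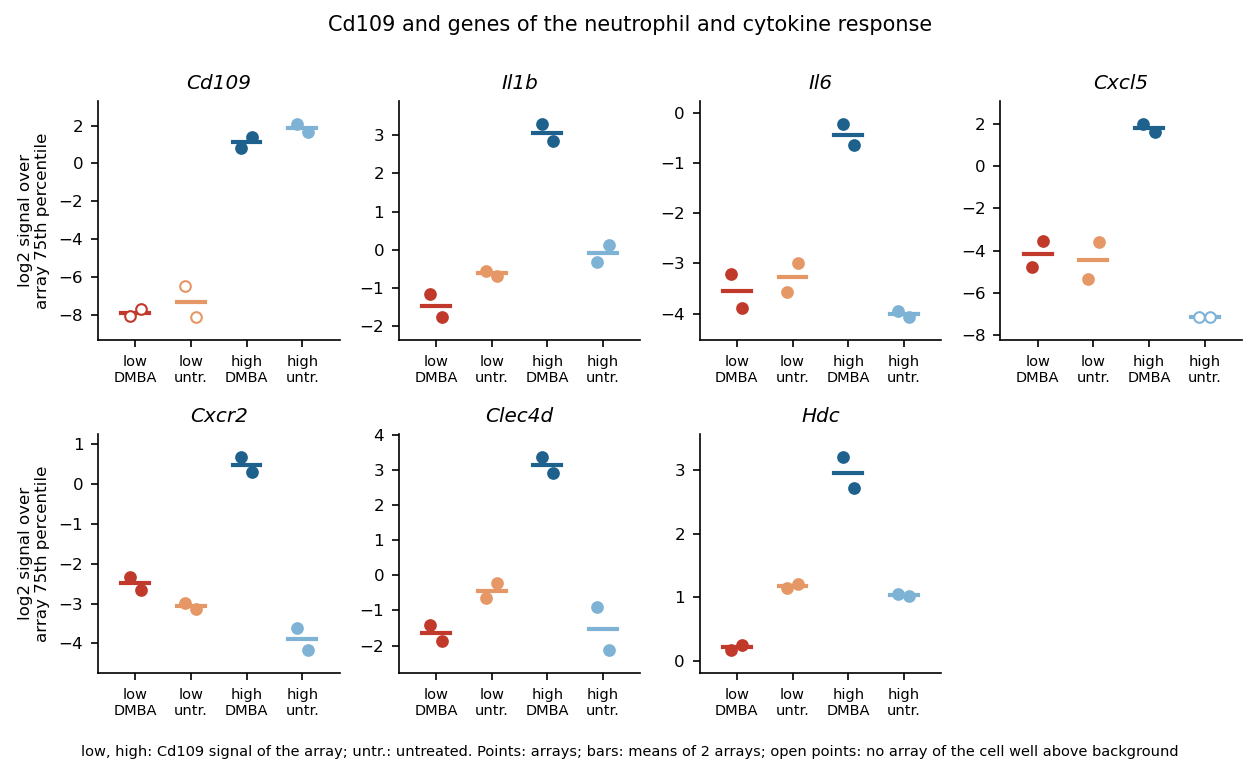
Signal (log2 over the array's 75th percentile) of Cd109 and 6 genes of the neutrophil and cytokine response on each array, with points for arrays, bars for means of 2 arrays and open points where no array of the cell was well above background. In each of the 6 genes the 2 Cd109-high arrays with DMBA lie above the other 6 arrays. The genes were picked by their values or with earlier results of these data known, so this is no test.

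Chemokines that attract neutrophils were raised by DMBA in Cd109-high skin. Of 8 tested chemokines and inducers of them, 0 rose in Cd109-low skin (0.0119% of all genes did) and 6 in Cd109-high skin (3.07% did). The difference was lower for 6 at an unadjusted p under 0.05 (75%, against 9.12% of all genes), with a median of -3.23. Cxcl5, an epithelial CXC chemokine, had signals of -4.78 and -3.56 in Cd109-low skin with DMBA and -5.33 and -3.58 in Cd109-low untreated skin, against 1.98 and 1.63 in Cd109-high skin with DMBA and -7.16 and -7.14 in Cd109-high untreated skin. The Cd109-low values overlapped between treatments. The probe was not well above background in Cd109-high untreated skin, so that the rise there is a bound, at least 212-fold (limma adjusted p = 0.0098), and the difference has no size. Cxcl3, a related chemokine, was well above background only in Cd109-high skin with DMBA, where it was at least 13.1-fold higher than in untreated skin. It entered the test through that cell alone, as did Csf3, a growth factor of neutrophils, so their calls are no support; of the other 6 genes 4 rose in Cd109-high skin and 4 had a lower difference at that p, with a median of -2.35. The exceptions were Il17a and Il17f, cytokines of T cells that induce these chemokines, which did not pass in either state. With the labels 5 of 8 tested were lower at an unadjusted p under 0.05, with Cxcl3 and Csf3 still among the 8. The share of all genes is the one given for the neutrophil list.

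Cytokines of the acute response were raised by DMBA in Cd109-high skin, and none passed in Cd109-low skin. Of 17 tested cytokines and mediators, 0 rose in Cd109-low skin (0.0119% of all genes did) and 7 in Cd109-high skin (3.07% did). At an unadjusted p under 0.05, 9 had a lower difference (52.9%, against 9.12% of all genes). At that p 1 gene, Lif, had a higher one (2.70), where 10.2% of all genes did. The median difference of the 17 was -1.07. Il1b, which encodes interleukin-1 beta, had -1.17 and -1.76 in Cd109-low skin with DMBA and -0.56 and -0.67 in Cd109-low untreated skin, against 3.28 and 2.84 in Cd109-high skin with DMBA and -0.32 and 0.14 in Cd109-high untreated skin. Both Cd109-low arrays with DMBA were the lowest of the 8, and both Cd109-high arrays with DMBA the highest. The effect of DMBA on Il1b was -0.85 ± 0.28 in Cd109-low skin (limma adjusted p = 0.220) and 3.16 ± 0.28 in Cd109-high skin, an 8.91-fold rise (adjusted p = 0.0136), and the difference was -4.0 ± 0.39 (adjusted p = 0.0597). Il6, which encodes interleukin-6, had -3.21 and -3.89 in Cd109-low skin with DMBA and -3.57 and -2.98 in Cd109-low untreated skin, against -0.23 and -0.63 in Cd109-high skin with DMBA and -3.95 and -4.07 in Cd109-high untreated skin. For Il6 the Cd109-low arrays overlapped between treatments, and the rise in Cd109-high skin was 11.9-fold, with a difference of -3.85 ± 0.44 (limma adjusted p = 0.0604). Over all 20 settings run, the labels as deposited among them, the difference stayed between -4.70 and -3.58 for Il1b and between -4.40 and -2.18 for Il6. Il19, a cytokine of the interleukin-10 family that acts on keratinocytes, rose 30.4-fold in Cd109-high skin, with a difference of -5.85 ± 0.99 (adjusted p = 0.0872). Without the 2 arrays 7 of 17 cytokines and mediators were lower at an unadjusted p under 0.05, and with the labels 7 of 16. Leaving out Il20, which entered the test through Cd109-low untreated skin alone, 8 of 16 were lower. Tnf and Il1a did not pass in either state, with effects of 0.13 and 0.17 in Cd109-low and 0.63 and -0.36 in Cd109-high skin.

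Among 15 tested CC chemokines, which attract monocytes and lymphocytes, 0 passed in Cd109-low skin, 2 rose in Cd109-high skin, Ccl3 and Ccl4, and 1 fell there, Ccl27a. Of all genes, 0.0119% rose and 0.0178% fell in Cd109-low skin, and 3.07% rose and 1.54% fell in Cd109-high skin. The median difference of the 15 was -0.89, with 5 lower (33.3%, against 9.12% of all genes) and 1 higher (6.67%, against 10.2%) at an unadjusted p under 0.05. At that p 4 were lower without the 2 arrays, and 7 with the labels. Ccl3 had -2.71 and -4.33 in Cd109-low skin with DMBA and -2.84 and -2.66 in Cd109-low untreated skin, against 0.69 and 0.21 in Cd109-high skin with DMBA and -3.24 and -3.80 in Cd109-high untreated skin, and its difference was -4.74 ± 0.75 (limma adjusted p = 0.0821). Ccl4 had -2.05 and -3.43 in Cd109-low skin with DMBA and -2.31 and -1.95 in Cd109-low untreated skin, against 2.23 and 1.41 in Cd109-high skin with DMBA and -2.19 and -2.49 in Cd109-high untreated skin, a 17.9-fold rise in Cd109-high skin and a difference of -4.77 ± 0.70 (limma adjusted p = 0.0765). For Ccl4 the values of the other 3 cells overlapped, and for Ccl3 the Cd109-low arrays with DMBA overlapped both untreated cells. Ccl27a, a keratinocyte chemokine that attracts T cells, went the other way: its effect was -0.68 in Cd109-low skin, it fell by 2.43 with DMBA in Cd109-high skin (limma adjusted p = 0.0370), and the difference was 1.75. Hdc, the enzyme that makes histamine, had 0.17 and 0.25 in Cd109-low skin with DMBA and 1.14 and 1.20 in Cd109-low untreated skin, against 3.21 and 2.73 in Cd109-high skin with DMBA and 1.06 and 1.03 in Cd109-high untreated skin. The untreated arrays of both states lay close together and the DMBA arrays lay below them in Cd109-low skin and above them in Cd109-high skin; the effect in Cd109-low skin, -0.96, did not pass and the 3.80-fold rise in Cd109-high skin did (limma adjusted p = 0.0144). Of 9 mast cell genes tested, Hdc among them, 5 had a negative and 4 a positive difference, with a median of -0.48. Among all genes 49.4% had a negative one. At an unadjusted p under 0.05, 2 were lower (22.2%, against 9.12% of all genes), Hdc and Tpsb2. Tpsb2, a mast cell tryptase, had a difference of -0.83 ± 0.28 that did not pass (limma adjusted p = 0.184). The receptor gene Kit had the most positive difference, 0.77 ± 0.36 (limma adjusted p = 0.276).

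To show the sequence upstream of these genes, promoters of 2 members that rose in Cd109-high skin are given, picked after their values were seen and taken from RefSeq on GRCm38.p6 (a window from upstream of the start to just after it). Il6 lies at chr5:30012864-30013163 on the plus strand and Cxcl3 at chr5:90785851-90786150 on the plus strand; capitals mark matches on either strand to the AP-1 motif TGANTCA and to the kappaB motif of NF-kappaB.
Il6: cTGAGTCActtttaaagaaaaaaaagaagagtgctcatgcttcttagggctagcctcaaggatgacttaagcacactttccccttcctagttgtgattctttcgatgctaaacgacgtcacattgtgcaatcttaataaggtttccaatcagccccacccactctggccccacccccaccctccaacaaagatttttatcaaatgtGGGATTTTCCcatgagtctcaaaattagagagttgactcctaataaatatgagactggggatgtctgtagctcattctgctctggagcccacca
Cxcl3: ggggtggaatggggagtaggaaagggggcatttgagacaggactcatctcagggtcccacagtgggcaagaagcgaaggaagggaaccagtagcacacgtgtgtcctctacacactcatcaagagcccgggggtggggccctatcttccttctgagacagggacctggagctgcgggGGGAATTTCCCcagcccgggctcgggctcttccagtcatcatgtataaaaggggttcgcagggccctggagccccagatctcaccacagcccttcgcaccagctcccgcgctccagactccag
The Il6 window held 1 AP-1 and 1 kappaB match, and the Cxcl3 window held 2 overlapping kappaB matches on opposite strands and 0 AP-1 matches. The Il1b window held neither. Of all 32817 promoters of this length, 7.81% held an AP-1 match and 4.5% a kappaB match. Of the 6 neutrophil chemokines with a promoter, 3 held kappaB and 2 AP-1, and of the 14 cytokines and mediators 2 held kappaB and 5 AP-1. Here a gene counted if any of its promoters held a match, while the shares are of single promoters, so these are unlike measures. All are matches of letters and not measured sites.

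Genes of the activated epidermis, which keratinocytes switch on after injury, were raised most in Cd109-high skin as well. All 19 tested members had a negative difference (49.4% of all genes did), with a median of -2.46. At an unadjusted p under 0.05, 8 were lower (42.1%, against 9.12% of all genes). With DMBA, 0 of the 19 rose in Cd109-low skin (0.0119% of all genes did) and 6 in Cd109-high skin (3.07% did). Without the 2 arrays 6 of the 19 were lower at that p, with a median of -1.95, and with the labels 3, with a median of -1.13 and 10 negative differences. Sprr2k entered the test through Cd109-high skin with DMBA alone, and it is still among the 19 in these counts. Leaving it out of the count of 8, 7 of 18 were lower and 5 rose in Cd109-high skin. Stfa2, a stefin that inhibits cysteine proteases, had 2.74 and 2.38 in Cd109-low skin with DMBA and 1.60 and 1.59 in Cd109-low untreated skin, against 6.34 and 6.14 in Cd109-high skin with DMBA and 0.67 and -1.80 in Cd109-high untreated skin. The Cd109-low arrays with DMBA lay above all untreated arrays and below the Cd109-high arrays with DMBA; the 1.96-fold higher level in Cd109-low skin did not pass (limma adjusted p = 0.521) and the 112-fold rise in Cd109-high skin did (adjusted p = 0.0176). Probes for stefin genes may also bind close copies of the gene. The difference of Stfa2 was -5.84 ± 1.04 (adjusted p = 0.0924). Krt6a and Krt16, stress keratins, had effects of 0.46 and 0.54 in Cd109-low skin and rose by 4.39 and 4.0 in Cd109-high skin (limma adjusted p = 0.0229 and 0.0249). Wfdc12, which encodes a small protease inhibitor of the whey acidic protein family, passed in the difference: -1.26 and -0.95 in Cd109-low skin with DMBA and -1.46 and -1.99 in Cd109-low untreated skin, against 2.39 and 2.08 in Cd109-high skin with DMBA and -3.95 and -3.62 in Cd109-high untreated skin. The 4 Cd109-low arrays lay between the Cd109-high arrays with DMBA and those without. The effect on Wfdc12 was 0.62 ± 0.25 in Cd109-low skin and a 64.9-fold rise in Cd109-high skin, a difference of -5.40 ± 0.35 (limma adjusted p = 0.0440). Without the 2 arrays it was -5.30, and with the labels -3.24. Timp1 and Mmp13, a protease inhibitor and a collagenase of matrix turnover, rose 13.4-fold and 10.5-fold in Cd109-high skin, with differences of -3.12 ± 0.53 and -4.09 ± 0.70 (adjusted p = 0.0883 and 0.0878).

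**Figure D3:**
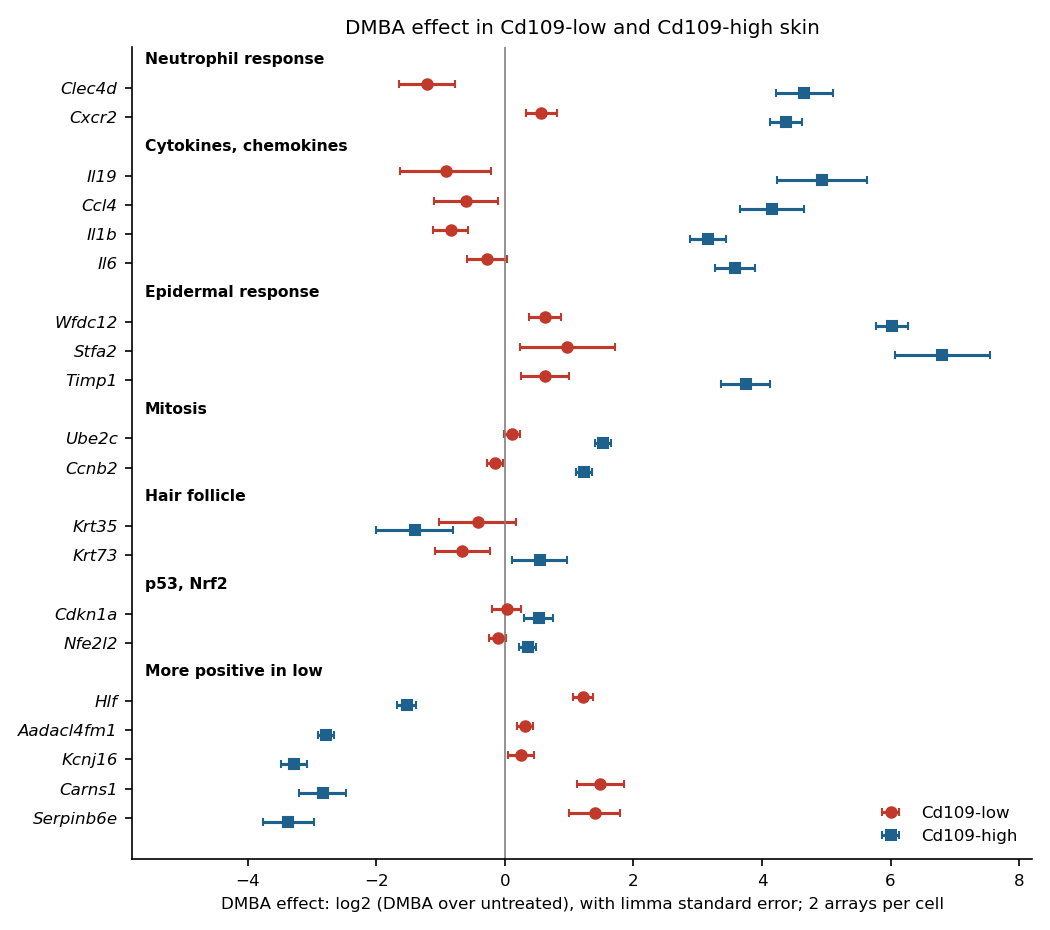
DMBA effect (log2 of DMBA over untreated) with its limma standard error for 20 genes in Cd109-low skin (circles, upper) and Cd109-high skin (squares, lower), 2 arrays per cell. Most of the genes were picked by their values in these data. The 9 inflammatory and epidermal genes, Clec4d to Timp1, lie from -1.21 (Clec4d) to 0.97 (Stfa2) in Cd109-low skin and from 3.16 (Il1b) to 6.81 (Stfa2) in Cd109-high skin, and Hlf, Aadacl4fm1, Kcnj16, Carns1 and Serpinb6e lie below 0 in Cd109-high skin.

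Of the 27 lists, cell cycle genes had the largest share of members with a difference at an unadjusted p under 0.05. Of 26 tested proliferation genes 25 had a negative difference (49.4% of all genes did), with a median of -1.12. At an unadjusted p under 0.05, 21 were lower (80.8%, against 9.12% of all genes). With DMBA, 0 of the 26 rose in Cd109-low skin (0.0119% of all genes did) and 16 in Cd109-high skin (3.07% did). Ube2c, a ubiquitin-conjugating enzyme of mitotic exit, had 2.18 and 2.16 in Cd109-low skin with DMBA and 2.02 and 2.11 in Cd109-low untreated skin, against 1.83 and 1.97 in Cd109-high skin with DMBA and 0.46 and 0.29 in Cd109-high untreated skin. Ccnb2, a cyclin of mitosis, had 3.21 and 3.05 in Cd109-low skin with DMBA and 3.27 and 3.31 in Cd109-low untreated skin, against 3.04 and 2.97 in Cd109-high skin with DMBA and 1.72 and 1.84 in Cd109-high untreated skin. For both genes the Cd109-high arrays with DMBA came up to just under the Cd109-low arrays, which were high with or without DMBA. Ube2c rose 2.88-fold and Ccnb2 2.34-fold in Cd109-high skin, with differences of -1.42 ± 0.18 and -1.38 ± 0.17 (limma adjusted p = 0.0630 for both). The mean of the list was 1.81 and 1.74 in Cd109-low skin with DMBA and 1.72 and 1.84 in Cd109-low untreated skin, against 1.37 and 1.45 in Cd109-high skin with DMBA and 0.54 and 0.30 in Cd109-high untreated skin. The hair follicle lists, from a structure that holds dividing cells when hair grows, were high on the same 4 arrays; their part in the result was not tested. This list depended on the grouping: without the 2 arrays its median difference was -1.01, with 16 genes lower at an unadjusted p under 0.05, but with the labels it was 0.44, with 0 lower and 0 higher at that p, and the differences of Ccnb2 and Ube2c turned positive, 0.05 and 0.31.

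Many cell cycle promoters carry CCAAT boxes and the CHR element, and through the CHR they are repressed in resting cells. The promoter of Ccnb2 is therefore shown, from RefSeq on GRCm38.p6 at chr9:70421505-70421804 on the minus strand. Capitals mark matches on either strand to CCAAT and to the CHR letters TTTGAA.
Ccnb2: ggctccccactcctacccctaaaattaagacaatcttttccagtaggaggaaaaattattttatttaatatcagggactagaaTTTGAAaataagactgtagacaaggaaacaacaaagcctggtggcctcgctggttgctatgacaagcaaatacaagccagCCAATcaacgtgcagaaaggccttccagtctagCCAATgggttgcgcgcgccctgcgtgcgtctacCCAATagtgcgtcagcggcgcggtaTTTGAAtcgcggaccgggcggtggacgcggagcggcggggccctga
It held 3 CCAAT and 2 CHR matches. Of the 22 proliferation genes with a promoter, 20 held CCAAT and 12 the CHR letters, where 37.4% and 17.9% of all promoters did. A gene counted if any of its promoters held a match, while the shares are of single promoters, so these are unlike measures.

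Other genes past the threshold with a lower difference were Cdhr1, Mrgpra2b, Grm6, Vmn2r26 and Olfr117. Cdhr1, a cadherin-related protein known from photoreceptors, had -3.37 and -3.49 in Cd109-low skin with DMBA and -4.33 and -5.12 in Cd109-low untreated skin, against -0.84 and -0.64 in Cd109-high skin with DMBA and -7.25 and -7.18 in Cd109-high untreated skin, where it was not well above background. It was at least 36.2-fold higher with DMBA in Cd109-high skin. Mrgpra2b, a receptor of the Mas-related family that in mice occurs on neutrophils, had -5.88 and -6.21 in Cd109-low skin with DMBA and -4.74 and -4.61 in Cd109-low untreated skin, against -0.74 and -1.73 in Cd109-high skin with DMBA and -6.68 and -6.14 in Cd109-high untreated skin. It was at least 2.06-fold lower with DMBA in Cd109-low skin, which did not pass, and at least 25.7-fold higher with DMBA in Cd109-high skin (limma adjusted p = 0.169 and 0.00978), the 2 cells at -5.88 and lower being not well above background. Grm6, a glutamate receptor of retinal bipolar cells, was well above background only in Cd109-high skin with DMBA, at -4.83 and -4.96. Vmn2r26, a vomeronasal receptor, and Olfr117, an olfactory receptor, were well above background only in Cd109-low untreated skin, at -4.15 and -4.16 for Vmn2r26 and -3.81 and -4.11 for Olfr117. These 3 receptors are known from sensory tissues and lay more than 3 log2 units below the array's 75th percentile throughout. Each entered the test through the 1 cell where it was high, so their passing is no support for a difference. The differences without the 2 arrays were -4.82 for Cdhr1 and -6.88 for Mrgpra2b, and with the labels -2.33 and -5.14, fitted values that include dim cells and did not pass.

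Of the genes past the threshold with a higher difference, Kcnj16, Aadacl4fm1 and Hlf had a gene name and a bright enough probe, and each was highest in Cd109-high untreated skin. Kcnj16, an inwardly rectifying potassium channel, had -3.36 and -3.47 in Cd109-low skin with DMBA and -3.76 and -3.56 in Cd109-low untreated skin, against -4.80 and -4.34 in Cd109-high skin with DMBA and -1.16 and -1.41 in Cd109-high untreated skin. Its effect was 0.25 ± 0.20 in Cd109-low skin and a 9.73-fold fall in Cd109-high skin, and the difference was 3.53 ± 0.28 (limma adjusted p = 0.0487). Aadacl4fm1, a member of the arylacetamide deacetylase-like family, had -3.02 and -3.02 in Cd109-low skin with DMBA and -3.23 and -3.41 in Cd109-low untreated skin, against -3.78 and -3.85 in Cd109-high skin with DMBA and -1.10 and -0.97 in Cd109-high untreated skin, and a difference of 3.09 ± 0.18 (limma adjusted p = 0.0440). In both genes the Cd109-low arrays lay between the Cd109-high arrays with DMBA and those without. Hlf, a transcription factor of the clock-controlled PAR family, had effects of opposite sign in the 2 states, with 0.65 and 0.40 in Cd109-low skin with DMBA and -0.69 and -0.68 in Cd109-low untreated skin, against -0.83 and -0.58 in Cd109-high skin with DMBA and 0.77 and 0.89 in Cd109-high untreated skin. The effect of 1.21 ± 0.15 in Cd109-low skin did not pass (limma adjusted p = 0.0887), the 2.89-fold fall in Cd109-high skin did (adjusted p = 0.0157), and the difference was 2.74 ± 0.21 (adjusted p = 0.0487). These differences were, without the 2 arrays, 3.56 for Kcnj16, 3.11 for Aadacl4fm1 and 2.68 for Hlf, and with the labels 1.18, 0.82 and 1.16; none of these passed. Nptx2, a neuronal pentraxin, passed through a dim probe that was well above background only in Cd109-high untreated skin, the cell that let it into the test, while its brighter probe had a difference of 1.60 ± 0.57 (adjusted p = 0.202). The other 2 probes past the threshold have no gene name here.

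Larger positive differences among the named genes did not pass. Hamp2, a hepcidin peptide gene of mice, had -4.10 and -3.97 in Cd109-low skin with DMBA and -4.57 and -4.17 in Cd109-low untreated skin, against -6.21 and -4.35 in Cd109-high skin with DMBA and 2.53 and 4.34 in Cd109-high untreated skin. Only the 2 Cd109-high untreated arrays were above 0, 1 of the 2 Cd109-high arrays with DMBA was well above background, and the difference was 9.04 ± 1.1 (limma adjusted p = 0.0615). Serpinb6e, a serine protease inhibitor, and Carns1, which makes carnosine, had effects of 1.40 ± 0.40 and 1.48 ± 0.37 in Cd109-low skin and fell 10.3-fold and 7.13-fold in Cd109-high skin, with differences of 4.77 ± 0.56 and 4.32 ± 0.52 (limma adjusted p = 0.0614 and 0.0615). Leaving out the 2 arrays, the differences were 7.94 for Hamp2, 4.55 for Serpinb6e and 3.78 for Carns1, and with the labels 0.14, 0.56 and 0.33. Fosb, a member of the AP-1 family, and Tgfb2, a TGF-beta ligand, fell 4.93-fold and 2.99-fold in Cd109-high skin and had differences of 2.45 ± 0.39 and 1.46 ± 0.24 (adjusted p = 0.0821 and 0.0832), which with the labels were -0.25 and -0.64.

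**Figure D4:**
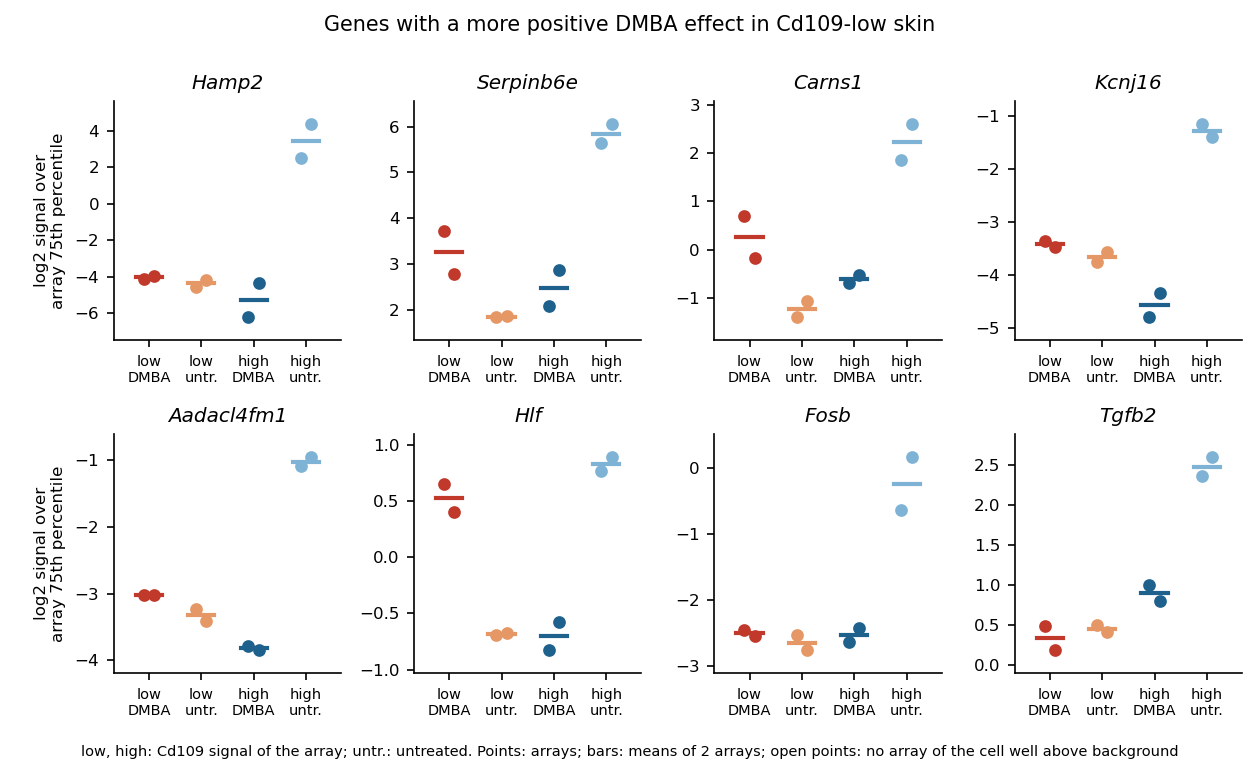
Signal (log2 over the array's 75th percentile) of 8 genes with a more positive DMBA effect in Cd109-low skin, with points for arrays and bars for means of 2 arrays. In each gene the 2 Cd109-high untreated arrays lie above the 2 Cd109-high arrays with DMBA. The genes were picked by their values in these data, so this is no test.

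The lists for pathways that DMBA and CD109 are known for had median differences between -0.14 and 0.46. Of 28 p53 target genes, which respond to DNA damage, 0 rose past the adjusted p in Cd109-low skin and 3 in Cd109-high skin. Of all genes, 0.0119% and 3.07% did. The median DMBA effects of the 28 were 0.33 in Cd109-low and 0.24 in Cd109-high skin, against -0.004 and -0.023 over all genes. The median difference of the 28 was 0.07. At an unadjusted p under 0.05, 1 was lower and 2 higher, against 9.12% and 10.2% of all genes. Cdkn1a, which encodes the cell cycle inhibitor p21, had 2.87 and 3.15 in Cd109-low skin with DMBA and 3.15 and 2.82 in Cd109-low untreated skin, against 2.56 and 3.02 in Cd109-high skin with DMBA and 2.40 and 2.13 in Cd109-high untreated skin. Its Cd109-low cells overlapped, and the difference was -0.50 ± 0.32 (limma adjusted p = 0.398). A dimmer probe of Cdkn1a had a difference of 0.09. Nfe2l2, which encodes the antioxidant regulator Nrf2, had 2.75 and 2.63 in Cd109-low skin with DMBA and 2.86 and 2.75 in Cd109-low untreated skin, against 3.46 and 3.48 in Cd109-high skin with DMBA and 3.01 and 3.22 in Cd109-high untreated skin, and a difference of -0.47 ± 0.18 (limma adjusted p = 0.229). The 38 Nrf2 targets had a median difference of -0.14. At an unadjusted p under 0.05, 4 were lower and 4 higher, against 9.12% and 10.2% of all genes. The medians without the 2 arrays were 0.13 for the p53 targets and -0.16 for the Nrf2 targets, and with the labels 0.03 and -0.47. Among the Nrf2 targets Akr1b8, an aldo-keto reductase, rose by 1.64 ± 0.18 in Cd109-high skin, and Cat, which encodes catalase, fell by 0.96 ± 0.11 there (adjusted p = 0.0186 and 0.0203 in limma). The 11 aryl hydrocarbon receptor targets had a median difference of 0.46, with 4 negative and 7 positive. Cyp1b1, a cytochrome P450 that activates DMBA, had effects of -0.79 ± 0.17 in Cd109-low and 0.15 ± 0.17 in Cd109-high skin. Neither passed, nor did the difference of -0.94 ± 0.24 (limma adjusted p = 0.135). Cyp1a1, another of the targets, had a positive difference, with effects of 0.74 ± 0.35 in Cd109-low and 0.09 ± 0.35 in Cd109-high skin, and did not pass. The 24 genes of the TGF-beta pathway and response had a median difference of -0.05. At an unadjusted p under 0.05, 2 were lower, Timp1 and Tgfb1, and 1 higher, Tgfb2, against 9.12% and 10.2% of all genes.

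Each gene that the study's text takes up from its arrays was not well above background in at least 1 cell. Shh, which encodes the hedgehog ligand of growing hair follicles, was well above background in Cd109-low skin only, at -1.75 and -1.90 with DMBA and -1.23 and -1.01 untreated, and the 2 Cd109-high cells were not well above background. S100a7a had -3.37 and -0.56 in Cd109-low skin with DMBA and -0.08 and -1.49 in Cd109-low untreated skin, and none of the contrasts passed. Il20, a cytokine related to Il19, was at -3.46 and -3.69 in Cd109-low untreated skin, where both arrays cleared background, and on 1 array in each DMBA cell it did so too. Akr1c19, an aldo-keto reductase, had -2.67 and -3.71 in Cd109-low skin with DMBA and -7.89 and -5.36 in Cd109-low untreated skin, against -8.23 and -6.34 in Cd109-high skin with DMBA and -3.87 and -2.30 in Cd109-high untreated skin. The Cd109-low arrays were higher with DMBA, an effect of 3.43 ± 1.08, and the Cd109-high arrays lower, by at least 9.34-fold since Cd109-high skin with DMBA was not well above background, and neither passed (limma adjusted p = 0.210 and 0.0967). In Cd109-low untreated skin 1 of the 2 arrays was well above background. Tpsab1 was not tested, since no cell had it well above background on both arrays.

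Lists for other cell types were mixed. Of 18 macrophage genes 14 had a negative difference (49.4% of all genes did), with a median of -0.79. At an unadjusted p under 0.05, 4 were lower (22.2%, against 9.12% of all genes) and 2 higher (11.1%, against 10.2%). Clec4n, a lectin of myeloid cells, rose by 2.31 in Cd109-high skin, with a difference of -1.77 ± 0.34. Itgam, the integrin CD11b, had a difference of 1.26 ± 0.31 by its brightest probe and -0.25 by the lowest of its 3 probes. With the labels 14 of the macrophage genes (77.8%) and 10 of the interferon response genes (58.8%) were lower, where 7.62% of all genes were, with medians of -2.45 and -2.47. Leaving out the 2 arrays, 7 and 4 were lower (38.9% and 23.5%, where 5.1% of all genes were). The 12 T cell genes went the other way, with a median of 0.87 and 0 lower and 4 higher (33.3%, against 10.2% of all genes), but 0 higher without the 2 arrays and 1 with the labels, and Cd3e, a chain of the T cell receptor complex, had effects of 0.36 ± 0.27 in Cd109-low and -1.06 ± 0.27 in Cd109-high skin (difference 1.42 ± 0.38, limma adjusted p = 0.140). The 13 endothelial genes had a median of -0.54, with 6 lower (46.2%, against 9.12%) and 2 higher (15.4%, against 10.2%), and without the 2 arrays 1 was lower, with the labels 7. The interferon response, with 17 genes, had a median of -0.48 and 1 lower (5.88%, against 9.12%). The hair shaft keratins, which differ so much between the states, had a median difference of 0.02, with 0 of 13 lower or higher at an unadjusted p under 0.05, but it depended on the setting and ran from -2.89 to 7.83, with up to 8 lower or 9 higher. With the labels the median was 7.83 for the hair shaft keratins, 7.97 for the inner root sheath genes and 3.15 for the hair matrix and dermal papilla genes, and without the 2 arrays 0.55, 0.08 and 0.19. No member of any of the 27 lists passed the adjusted p in the difference.

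In Cd109-low skin 5 genes passed for the DMBA effect itself. Cyp7b1, an oxysterol hydroxylase, rose by 1.79 ± 0.13 in Cd109-low and by 2.30 ± 0.13 in Cd109-high skin, with a difference of -0.51 (limma adjusted p = 0.197). The other 4, BC039966 with a positive effect and Vmn2r26, Olfr117 and 9230009I02Rik with negative ones, entered the test through 1 cell alone. BC039966 was well above background only in Cd109-high skin with DMBA, so it has no size in Cd109-low skin, and the other 3 only in Cd109-low untreated skin, the cell where they were high, so their passing is no support for an effect. Cyp7b1, BC039966 and 9230009I02Rik were named after their values were seen.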

How the data were processed

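Whole-skin RNA of 8 samples was hybridised to 1-colour Agilent arrays on 1 slide and scanned, and the authors deposited Feature Extraction 11.5.1.1 files, whose processed intensity per spot is background-subtracted. The deposited table of processed values equals this intensity times 1 constant per array and served as an alternative. Spots flagged as outliers were left out, spots of a probe were averaged, and log2 of the intensity minus log2 of the array's 75th percentile (382 to 626) was used. Of 55681 probes 55458 were kept, and a probe was tested if both arrays of 1 or more cells had it well above background. Of 29796 probes with a RefSeq accession, 28026 (94.1%) were named through the RefSeq gene table (GRCm38.p6). The 4 cell means were fitted with limma 3.58.1 in R 4.3.3, with Benjamini-Hochberg adjustment over all 37147 probes tested; residual degrees of freedom were 4. The script was tested on simulated data. The number of arrays limits the precision.

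Where a probe was not well above background on any array of a cell, only a bound is given: the mean of the bright cell against the mean, per array, of the higher of the lowest signal well above background and the probe's own signal. A gene is represented by its brightest tested probe. Named genes were those with a probe past the threshold in the difference, the 8 most positive and 8 most negative differences under the conditions that 3 or more cells had the probe well above background on each array and that the array pairs of the states did not overlap, genes taken up in the study's text, and up to 2 members of each list with the smallest p; other list members were named after their values were seen. The members and lists were chosen with earlier results of these data known. Some genes entered the fit and the counts but are not reported here. Alternatives covered quantile, median and normexp processing, filters, variance settings, the deposited table, a replicate block, the labels as deposited, the methods' 2-way test, leaving out each array, and leaving out the 2 arrays against their label; the list counts under these, and the counts without genes that entered the test through 1 cell alone, were added after seeing the data.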

Additional observations from a re-analysis of the deposited data

Results flagged for a closer look

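The DMBA effect differed between Cd109-low and Cd109-high skin for 13 probes by limma's test of the difference itself, with adjusted p between 0.0440 and 0.0487 and 2 arrays in each cell. Lower differences included -6.55 for Mrgpra2b, -5.40 for Wfdc12, -5.18 for Cdhr1, -3.35 for Olfr117, -3.28 for Vmn2r26 and -2.99 for Grm6. Higher differences were 3.53 for Kcnj16, 3.37 for the dim probe of Nptx2, 3.09 for Aadacl4fm1, 2.74 for Hlf, and 2.79 and 2.57 for the probes A_30_P01021572 and A_30_P01033037, which have no gene name here. The sizes for Mrgpra2b, Cdhr1, Olfr117, Vmn2r26, Grm6, Nptx2 and A_30_P01021572 rest on a cell that was not well above background and are fitted values only. Of the 13, 5 entered the test through 1 cell alone, Olfr117, Vmn2r26, Grm6, the dim probe of Nptx2 and A_30_P01021572, so their passing is no support for a difference. The probe A_30_P01033037 had signals of -2.77 and -2.92 in Cd109-low skin with DMBA and -4.15 and -3.96 in Cd109-low untreated skin, against -3.65 and -3.70 in Cd109-high skin with DMBA and -2.34 and -2.28 in Cd109-high untreated skin. Its effects had opposite signs in the 2 states, as those of Hlf did.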

How the results depend on the processing

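Counts of probes past the adjusted p depended on the processing, and the cause was not tested. In the order difference, Cd109-low effect and Cd109-high effect, where the values above were 13, 8 and 1301, they were 67, 8 and 1092 with quantile normalization, 67, 4 and 1213 with median centring, 1202, 5562 and 2382 with normexp, 0, 2 and 349 without a filter, 130, 0 and 1868 for probes well above background on all arrays, 222, 5 and 2499 with a trended robust variance, and 7, 3 and 1157 with the deposited table. They were 0, 0 and 169 without the 2 arrays against their label, 0, 0 and 66 with the labels as deposited (CD109-/- and CD109+/+ in place of the states), and 0, 1 and 33 with those labels and a replicate block. The methods' 2-way test gave 7261, 5980 and 7976 unadjusted and 0, 0 and 705 after Benjamini-Hochberg. The higher and lower calls in Cd109-high skin split 849 and 452, against 988 and 225 with median centring, 27 and 142 without the 2 arrays and 1386 and 996 with normexp. The median difference over all probes moved by -0.14, -0.35, 0.15 and 0.20 with quantile normalization, median centring, normexp and no filter.

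Leaving out 1 array at a time gave 0 to 184 probes for the difference, 0 to 169 for the Cd109-low effect and 45 to 1766 for the Cd109-high effect. The difference had 0 without either CD109+/+ DMBA array, without the untreated CD109+/+ replicate 2 or without the untreated CD109-/- replicate 2, and 86, 108, 184 and 161 without CD109-/- DMBA replicate 1, CD109-/- DMBA replicate 2, untreated CD109+/+ replicate 1 and untreated CD109-/- replicate 1. A lone array was then assumed to vary like the other cells, as in the fit without the 2 arrays against their label.

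With the replicate number as a block the counts were 0, 0 and 225. Correlations between label groups of the replicate 1 minus replicate 2 differences ranged from -0.08 to 0.74, with 4 of 6 over 0.1. The labels tie no number to an animal, litter or day, so the numbers were not taken as pairs. In untreated skin the number equals the Cd109 state.

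With the labels as deposited, with or without the replicate block, the differences of these genes changed sign: Nptx2 (brighter probe) -0.18, Shh 6.55, S100a7a 3.45, Cdkn1a 0.52, Fosb -0.25, Gtse1 0.12, Tgfb2 -0.64, Ccnb2 0.0454, Ube2c 0.31, Krt73 6.07, Mc1r 6.10, Awat2 -0.98, Plin4 -1.32 and Vwf -1.01. Normexp gave 0.0245 for Grm6 and 0.0312 for Lep, and the block gave -0.0822 for Plin4. Leaving out 1 array at a time gave -0.0036 (without CD109-/- DMBA replicate 1) to 0.82 for Plin4 and -0.68 (without CD109-/- DMBA replicate 2) to 4.47 for Krt33a.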
